A study of Homo sapiens with 36 samples.

Results

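The MYC, MAX and MXD network is a set of basic helix-loop-helix leucine zipper transcription factors that share a dimerization partner and a DNA element. Its members were taken here as 10 named genes, MYC, MYCL, MAX, MLX, MXD1, MXI1, MXD3, MXD4, MNT and MGA, looked up by symbol in the table of estimated counts per gene. All 10 were in the table and all 10 passed the count filter, among 14988 genes tested of 29744 listed. The list names the genes by their known roles, with a minimum count as the condition. It was chosen with earlier results of these data known.

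In this network MYC and its relative MYCL bind the E-box CACGTG as dimers with MAX and raise transcription of growth genes. MXD1, MXI1, MXD3, MXD4 and MNT compete for MAX and recruit the SIN3 corepressor, and MGA joins MAX in a repressive Polycomb complex. MLX is a parallel partner that pairs with MXD1, MXD4, MNT and the glucose-responsive factors MLXIP and MLXIPL. MYC mRNA turns over fast, and bromodomain inhibitors of the BET family are known to lower it in many tumour lines.

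RNA was sequenced from BxPC-3, a human pancreatic adenocarcinoma cell line labelled wild type, in 36 libraries of 12 groups with 3 libraries each. Cells received 1 of 5 compounds at 3 µM, namely TRAP1, JQ1, MS78, TRAP-1-NegB or TRAP-1-NegP, or the solvent DMSO, for 2 or 4 h, all grown in RPMI 1640 with fetal bovine serum. TRAP1 here is a compound and not the gene of that name, and JQ1 is a BET bromodomain inhibitor. Replicates carry numbers, but nothing in the labels says that they came from separate cultures, so p-values measure the spread between these libraries, which may be technical.

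Library totals ran between 15288688 and 26608325 estimated counts. The cells carried the markers of ductal epithelium: all 10 listed markers were expressed, and KRT19, a keratin of duct cells, lay between 2658 and 4325 TPM, transcript reads scaled for length and library size. Of 13 markers of other cell types in the table, 10 stayed under 1 TPM in every library, and INS and GCG, the hormones of islet cells, were at 0. The other 3 were CD68, a macrophage marker, at 17.5 to 27.6 TPM, CD3E, a T-cell marker, at up to 3.74 TPM, and COL1A1, a fibroblast collagen, at up to 2.40 TPM. With TRAP1 at 4 h COL1A1 and CD3E passed the test upward, at 0.82 (adjusted p = 0.00366) and 1.78 (adjusted p = 0.024), and CD68 at 0.23 did not (adjusted p = 0.129). The ductal markers summed to 20548 to 20812 TPM with TRAP1 at 4 h, against 18054 to 19245 TPM with DMSO at 4 h. Of these 10 markers, 8 passed the test upward, against 22.2% of all genes tested. The part of either set of markers in the results below was not tested. As in any bulk sample, fewer cells of a kind and less RNA per cell cannot be told apart. The library of TRAP1 at 4 h numbered 1 had 1287 tested genes at 0, against 929 and 503 in the other TRAP1 libraries at 4 h, and that of MS78 at 2 h numbered 1 stood apart from the other MS78 libraries at 2 h, with chi-square values over their degrees of freedom at 27.1 and 43.8, against 4.51 to 15.1 between replicates elsewhere. Calls that end without either are named where they occur.

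The E-box that the network binds also lies upstream of some of its own genes, and the stretches shown are those that held it. MLX and MNT fell and MXD4 rose in the results that follow. Members in which it was not found, such as MGA and MXD1, moved too. A link between the motif and these changes was not tested. The letters CACGTG, which read the same on both strands, occurred in 2548 of 35116 RefSeq promoter windows of GRCh38.p14, or 7.26%, each window running from 250 bases before to 50 bases after a gene's start. The scan covered 14 windows of 9 of the 10 members, and 3 of these 14 windows, each of a different gene, held the motif. No window of MYC was scanned, so the motif was not tested there. It began 50 bases upstream of the RefSeq start of MLX, 193 bases upstream of that of MNT and 238 bases upstream of that of MXD4. The stretches below run 5′ to 3′ on the gene's own strand up to the outermost annotated gene start, in lower case with the E-box in capitals. On GRCh38 the protein-coding genes themselves span chr17:42567068-42573239 (MLX), chr17:2384060-2401118 (MNT) and chr4:2247432-2262294 (MXD4) in GENCODE v29, so each stretch lies just upstream of its gene. The stretches are chr17:42566850-42567067 on the plus strand for MLX, chr17:2401119-2401310 on the minus strand for MNT and chr4:2262295-2262359 on the minus strand for MXD4.
MLX: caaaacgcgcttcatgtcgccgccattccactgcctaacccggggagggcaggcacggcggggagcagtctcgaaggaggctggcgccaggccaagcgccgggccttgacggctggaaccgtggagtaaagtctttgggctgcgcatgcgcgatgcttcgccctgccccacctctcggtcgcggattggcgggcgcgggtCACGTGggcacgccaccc
MNT: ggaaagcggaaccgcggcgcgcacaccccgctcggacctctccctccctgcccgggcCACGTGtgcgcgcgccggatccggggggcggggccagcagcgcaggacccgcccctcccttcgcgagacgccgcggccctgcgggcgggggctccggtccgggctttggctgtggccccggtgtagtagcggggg
MXD4: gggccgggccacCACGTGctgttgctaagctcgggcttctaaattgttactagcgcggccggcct
A match describes these letters alone, and no binding was measured here.

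The level of each member in untreated cells was read in TPM, which corrects for transcript length. With DMSO at 4 h MYC was highest at 68.3 ± 4.0 TPM (SD, n = 3), followed by MAX at 45.3 ± 4.8, MLX at 34.0 ± 1.1, MXD4 at 12.7 ± 0.80 and MXD1 at 8.0 ± 0.50 TPM, and the libraries of these neighbours did not overlap. MNT at 4.59 ± 0.52, MXD3 at 4.59 ± 0.81, MGA at 4.15 ± 0.30, MXI1 at 3.38 ± 0.50 and MYCL at 2.67 ± 1.12 TPM followed, and each overlapped the next in its libraries. With TRAP1 at 4 h the order was different below the leading pair. MYC stood at 40.1 ± 1.1 TPM and MAX at 29.2 ± 5.3 TPM, and MXD4 at 18.4 TPM and MXD1 at 14.3 TPM were now at or above MLX at 14.3 TPM. MGA at 1.27 TPM and MNT at 0.925 TPM were the lowest members in those libraries.

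For tests, counts were scaled to CPM, counts relative to library size, with TMM library factors, and edgeR's quasi-likelihood test with Benjamini-Hochberg adjustment called a gene at an adjusted p under 0.05. The 5 comparisons with DMSO at a time share the DMSO libraries of that time. With TRAP1, 6 of 10 members were called at 2 h, against 30.1% of all genes tested: 1 rose, against 15.7%, and 5 fell, against 14.3%. At 4 h TRAP1 gave 9 calls, against 46.7%, of which 4 rose, against 22.2%, and 5 fell, against 24.5%. With TRAP-1-NegP, 5 were called at 2 h, against 30.3%, as 1 rose, against 16.4%, and 4 fell, against 13.9%. Its 8 calls at 4 h, against 37.4%, were 4 upward, against 18.6%, and 4 downward, against 18.9%. With JQ1, 5 were called at 2 h, against 28.8%, as 1 rose, against 14.8%, and 4 fell, against 13.9%. Its 8 calls at 4 h, against 48.9%, were 3 upward, against 24.3%, and 5 downward, against 24.6%. With any single JQ1 or DMSO library at 4 h left out, 7 calls remained. TRAP-1-NegB gave 1 call at 2 h, against 10.9%, and 0 at 4 h, against 1.03%; at 4 h 1 member had an unadjusted p under 0.05 by edgeR and DESeq2 called 1. MS78 gave 2 calls at 2 h, against 15.9%, and 2 at 4 h, against 15.3%. The median log2 fold change over the 10 members was 0.06 for TRAP1 at 4 h, against -0.02 over all genes, since 4 members rose and 5 fell.

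**Figure D1:**
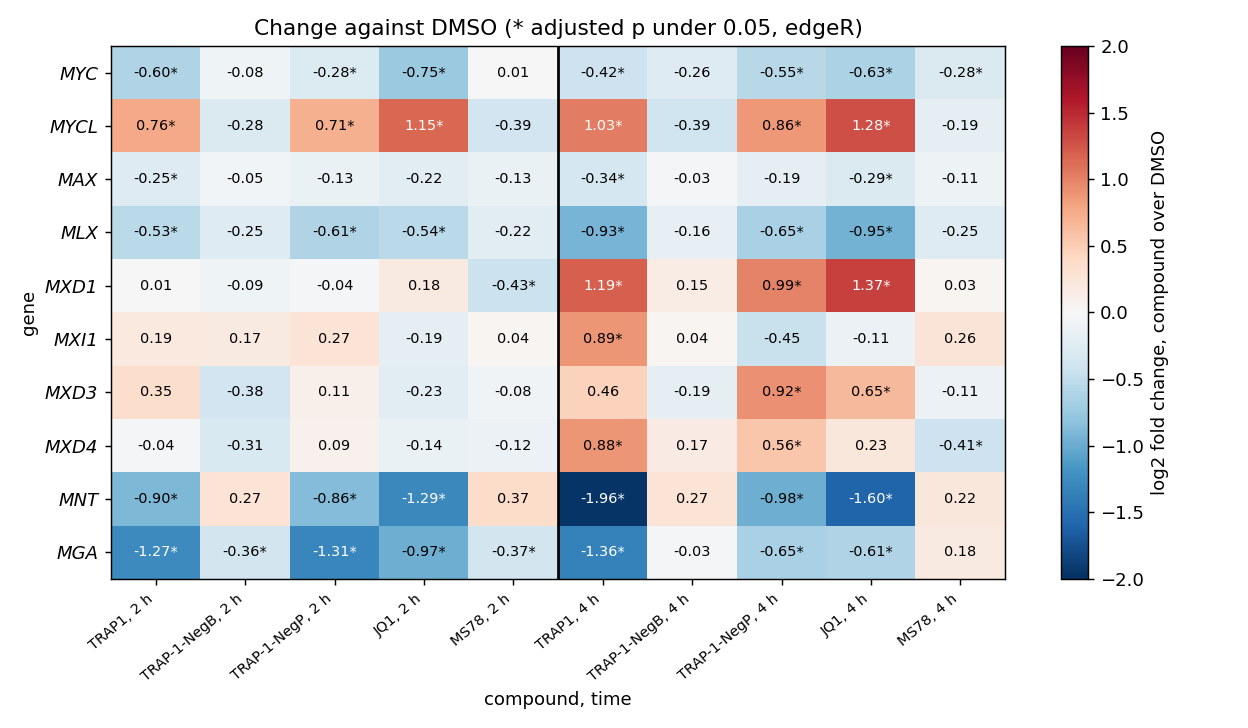
Log2 fold changes of the 10 members (rows) for each compound over DMSO at 2 and 4 h (columns), by edgeR; an asterisk marks an adjusted p under 0.05. MNT, MGA and MLX were lower and MYCL higher with TRAP1, TRAP-1-NegP and JQ1 at both times, and MXD1 was higher with these compounds at 4 h.

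MYC, the activator at the centre of the network, was lower with TRAP1, TRAP-1-NegP and JQ1 at both times. At 2 h it had 59.9, 61.1 and 55.0 CPM with TRAP1, 79.7, 82.5 and 90.6 CPM with TRAP-1-NegB, 73.6, 71.3 and 75.4 CPM with TRAP-1-NegP, 54.9, 50.1 and 54.2 CPM with JQ1, 89.2, 96.7 and 82.4 CPM with MS78, and 92.6, 91.0 and 83.8 CPM with DMSO. The libraries of TRAP1, TRAP-1-NegP and JQ1 lay below all DMSO libraries, while those of TRAP-1-NegB and MS78 overlapped them. The log2 fold changes over DMSO were -0.60 ± 0.08 for TRAP1 (SE; adjusted p = 5.92e-09), -0.28 ± 0.08 for TRAP-1-NegP (adjusted p = 0.00321) and -0.75 ± 0.08 for JQ1 (adjusted p = 1.41e-11). At 4 h MYC had 79.1, 78.0 and 84.7 CPM with TRAP1, 88.2, 92.1 and 88.6 CPM with TRAP-1-NegB, 74.7, 66.4 and 79.7 CPM with TRAP-1-NegP, 68.8, 72.3 and 67.5 CPM with JQ1, 88.9, 81.8 and 94.6 CPM with MS78, and 111, 107 and 104 CPM with DMSO. Every compound's libraries now lay below the DMSO libraries, which were themselves higher than at 2 h. TRAP1 gave -0.42 ± 0.08 (adjusted p = 6.02e-06), TRAP-1-NegP -0.55 ± 0.08 (adjusted p = 3.21e-08), JQ1 -0.63 ± 0.08 (adjusted p = 4.73e-10) and MS78 -0.28 ± 0.08 (adjusted p = 0.00585). The MS78 call ended without the DMSO library numbered 1, at -0.22, or the MS78 library numbered 2, at -0.20. TRAP-1-NegB at -0.26 ± 0.08 was not called (adjusted p = 0.0783), but was by DESeq2 (-0.27, adjusted p = 0.0132), with only the groups compared (adjusted p = 0.0305) and on library totals, at -0.30 (adjusted p = 0.025).

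The size of the fall in MYC depended on the scaling. Without TMM factors, on library totals alone, the median of all genes shifted to -0.29 for TRAP1, -0.19 for TRAP-1-NegP and -0.14 for JQ1 at 4 h, and MYC with TRAP1 at 4 h was at -0.69 instead of -0.42. The 9 members called with TRAP1 at 4 h were called in the same direction on that scale, with MAX at -0.62, MLX at -1.20, MNT at -2.23, MGA at -1.63, MXD1 at 0.92, MXD4 at 0.61, MXI1 at 0.62 and MYCL at 0.76. Values below are relative to TMM scaling unless another scale is named.

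**Figure D2:**
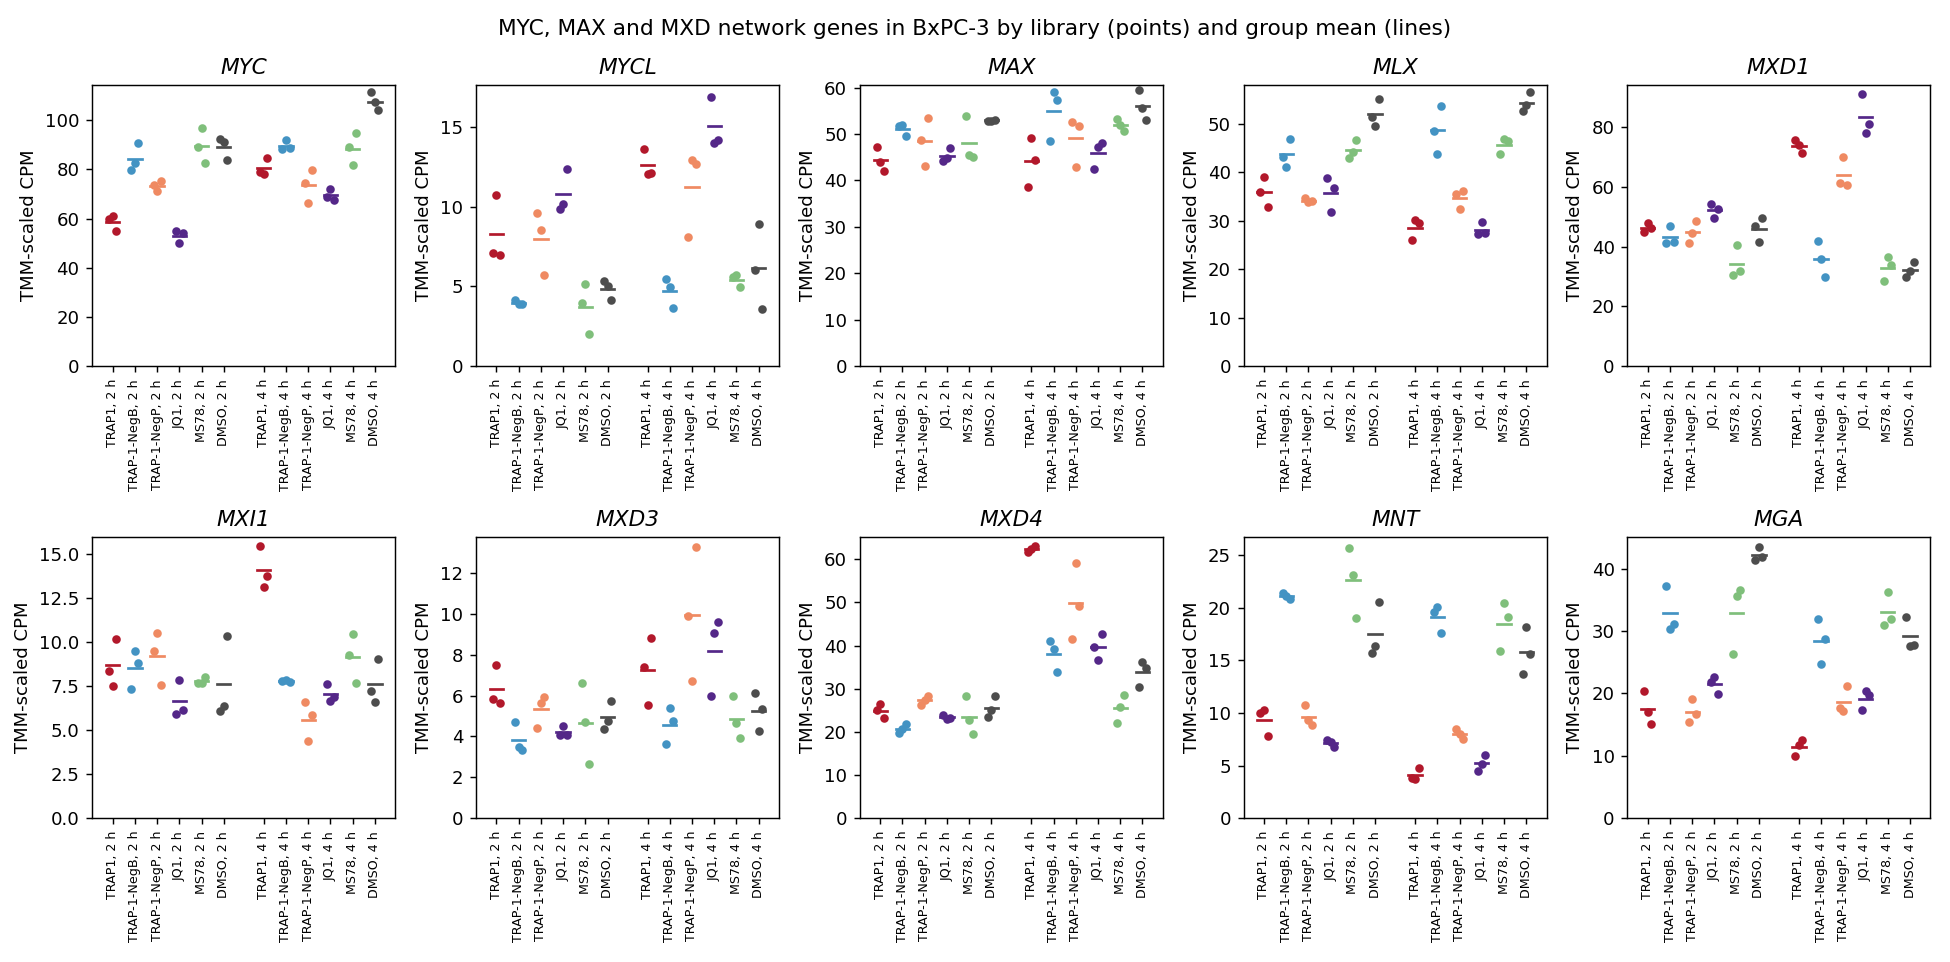
TMM-scaled CPM of the 10 members, 1 panel each; points are libraries and lines group means, with 2 h and 4 h side by side and DMSO last at each time. With TRAP1 at 4 h MNT lay between 3.68 and 4.74 CPM and MXD1 between 71.3 and 75.4 CPM, against 13.7 to 18.1 and 29.9 to 34.7 CPM with DMSO.

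MYCL, a MYC relative that also needs MAX, moved the other way at a low level. At 4 h it had 13.6, 12 and 12.1 CPM with TRAP1, 5.47, 4.97 and 3.68 CPM with TRAP-1-NegB, 8.09, 12.9 and 12.6 CPM with TRAP-1-NegP, 16.9, 14 and 14.2 CPM with JQ1, 5.59, 5.71 and 4.94 CPM with MS78, and 6.02, 8.91 and 3.61 CPM with DMSO. The libraries of TRAP1 and JQ1 lay above those of DMSO, and those of TRAP-1-NegP overlapped them. MYCL rose by a log2 fold change of 1.03 ± 0.25 with TRAP1 (adjusted p = 0.000457), 0.86 ± 0.25 with TRAP-1-NegP (adjusted p = 0.00431) and 1.28 ± 0.25 with JQ1 (adjusted p = 1.74e-05). The TRAP-1-NegP call ended without the DMSO library numbered 3, at 0.59. At 2 h the values were 0.76 ± 0.25 with TRAP1 (adjusted p = 0.0159), 0.71 ± 0.25 with TRAP-1-NegP (adjusted p = 0.0272) and 1.15 ± 0.25 with JQ1 (adjusted p = 0.000241). The TRAP1 call at 2 h ended without the TRAP1 library numbered 2, at 0.53, or the DMSO library numbered 3, at 0.67, and the TRAP-1-NegP call ended without any of 4 of its 6 libraries, DMSO numbered 2 and 3 and TRAP-1-NegP numbered 1 and 2, at 0.55 to 0.74. With TRAP-1-NegB and MS78 MYCL was not called, at values between -0.39 and -0.19.

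MAX, the shared partner with which MYC and the MXD proteins bind DNA, moved little. At 4 h it had 38.7, 49.2 and 44.5 CPM with TRAP1, 42.4, 47.2 and 48.1 CPM with JQ1, and 59.5, 55.5 and 53.0 CPM with DMSO. Both compounds' libraries lay below those of DMSO, at -0.34 ± 0.10 for TRAP1 (adjusted p = 0.00226) and -0.29 ± 0.10 for JQ1 (adjusted p = 0.0108). The JQ1 call ended without the DMSO or the JQ1 library numbered 1, at -0.23 in each case. At 2 h TRAP1 gave -0.25 ± 0.10 (adjusted p = 0.0377), and this call ended without any of 5 of the 6 libraries, all but TRAP1 numbered 1, at -0.22 to -0.25. Values for TRAP-1-NegP at 4 h, -0.19 (adjusted p = 0.112), and JQ1 at 2 h, -0.22 (adjusted p = 0.0732), were not called. On library totals both were, at -0.37 (adjusted p = 0.000989) and -0.31 (adjusted p = 0.00814), as was TRAP-1-NegP at 2 h, at -0.27 (adjusted p = 0.0219), and JQ1 at 2 h was also called with only the groups compared, at -0.24 (adjusted p = 0.0101).

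MLX, the partner of MXD1, MXD4, MNT and the Mondo proteins, fell further than MAX. Its libraries at 4 h held 26, 30.2 and 29.5 CPM with TRAP1, 48.6, 43.8 and 53.6 CPM with TRAP-1-NegB, 35.6, 32.5 and 36.2 CPM with TRAP-1-NegP, 27.2, 29.8 and 27.4 CPM with JQ1, 43.8, 46.8 and 46.4 CPM with MS78, and 52.6, 54.0 and 56.5 CPM with DMSO. The libraries of TRAP1, TRAP-1-NegP and JQ1 lay far below those of DMSO. The log2 fold changes were -0.93 ± 0.09 for TRAP1 (adjusted p = 3.44e-12), -0.65 ± 0.09 for TRAP-1-NegP (adjusted p = 1.02e-07) and -0.95 ± 0.09 for JQ1 (adjusted p = 1.65e-12). At 2 h they were -0.53 for TRAP1, -0.61 for TRAP-1-NegP and -0.54 for JQ1, all called. By edgeR MLX was not called with TRAP-1-NegB, at -0.25 and -0.16, or with MS78, at -0.22 and -0.25, at 2 and 4 h. DESeq2 called it with TRAP-1-NegB at 2 h (-0.24, adjusted p = 0.0352) and with MS78 at 4 h (-0.24, adjusted p = 0.0303), and edgeR did so for TRAP-1-NegB at 2 h with only the groups compared (adjusted p = 0.0322) and for MS78 at 4 h with a stricter count filter (adjusted p = 0.0488).

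Deposited transcript levels placed most of the fall of MLX in a single transcript. NM_198204.1, which GENCODE gives as a coding sequence of 244 codons, had 6.13 ± 1.75 TPM with TRAP1, 12.3 ± 4.2 TPM with TRAP-1-NegP, 10.2 ± 1.4 TPM with JQ1 and 25.6 ± 3.0 TPM with DMSO at 4 h (SD, n = 3). Its highest TRAP1 library, at 7.23 TPM, lay below its lowest DMSO library, at 22.6 TPM. NM_198205.1, of 214 codons, had 7.61 ± 1.75 TPM with TRAP1 and 6.09 ± 3.77 TPM with DMSO, and these libraries overlapped. NM_198204.1 made up 43.6% of MLX transcripts with TRAP1 at 4 h (27.2 to 54.8% in the 3 libraries), against 75.5% with DMSO at 4 h (64.3 to 84.6%). Transcript levels are model estimates and got no test: 3 libraries against 3 allow no exact permutation p below 0.1. For MAX, NM_002382.4, of 160 codons, made up a median of 55.8% over the libraries and NM_145112.2, of 151 codons, 31.1%. The transcripts of MXI1 were too unsteady to describe, with the share of NM_005962.4 running between 0 and 100% of the gene.

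**Figure D3:**
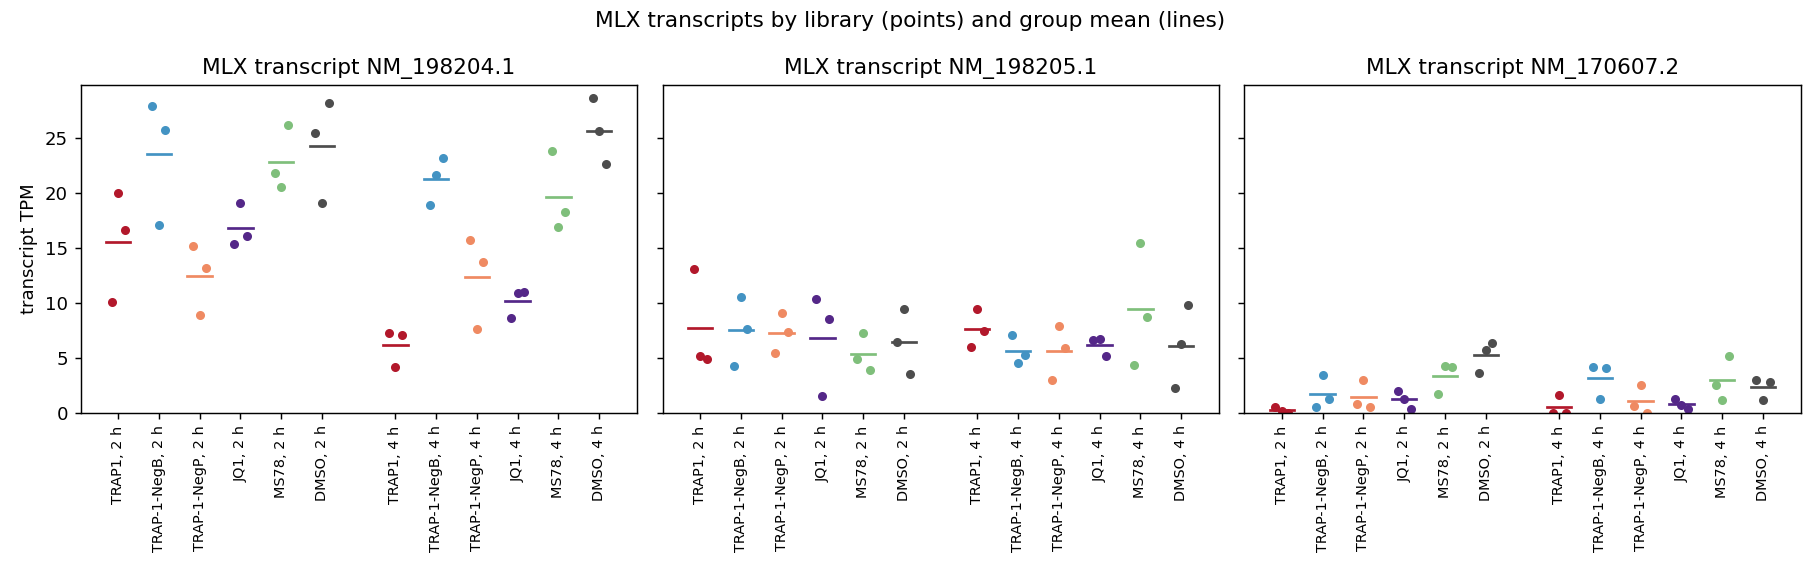
Transcript TPM of the 3 MLX transcripts (panels) by group; points are libraries and lines group means. NM_198204.1 was at 6.13 TPM with TRAP1 and 25.6 TPM with DMSO at 4 h, while NM_198205.1 was at 7.61 and 6.09 TPM.

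MXD1, a repressor partner of MAX that is typical of differentiating cells, was higher with TRAP1, TRAP-1-NegP and JQ1 at 4 h. At 2 h it had 44.8, 47.8 and 46.2 CPM with TRAP1, 41.3, 44.5 and 48.6 CPM with TRAP-1-NegP, 54.2, 49.6 and 52.7 CPM with JQ1, and 47.0, 41.5 and 49.5 CPM with DMSO. None of these 3 compounds passed the test at 2 h, with values of 0.01, -0.04 and 0.18. By 4 h MXD1 had 75.4, 74.0 and 71.3 CPM with TRAP1, 41.7, 35.9 and 29.97 CPM with TRAP-1-NegB, 61.2, 69.9 and 60.4 CPM with TRAP-1-NegP, 90.8, 77.7 and 81.0 CPM with JQ1, 28.4, 36.6 and 33.9 CPM with MS78, and 29.9, 31.9 and 34.7 CPM with DMSO. TRAP1, TRAP-1-NegP and JQ1 lay well above DMSO, at 1.19 ± 0.11 (adjusted p = 3.81e-14), 0.99 ± 0.11 (adjusted p = 3.46e-11) and 1.37 ± 0.11 (adjusted p = 2.59e-16). MS78 was lower than DMSO at 2 h, with 30.5, 40.5 and 32 CPM, at -0.43 ± 0.11 (adjusted p = 0.00288), a call that ended when only these groups were fitted (adjusted p = 0.111).

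MXI1, also called MXD2, rose with TRAP1 at 4 h and passed the test against DMSO in no other group. Its 4 h values were 15.4, 13.2 and 13.8 CPM with TRAP1, 7.80, 7.87 and 7.77 CPM with TRAP-1-NegB, 6.58, 4.38 and 5.84 CPM with TRAP-1-NegP, 7.61, 6.64 and 6.88 CPM with JQ1, 9.27, 10.5 and 7.70 CPM with MS78, and 7.20, 6.61 and 9.03 CPM with DMSO. The TRAP1 libraries lay above those of every other group, at 0.89 ± 0.20 over DMSO (adjusted p = 0.000177). TRAP-1-NegP lay below DMSO without a call, at -0.45 ± 0.21 (adjusted p = 0.0819), and was called lower on library totals without TMM, at -0.62.

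MXD4, which is common in resting cells, had 61.8, 62.3 and 63.0 CPM with TRAP1, 41.1, 39.2 and 33.8 CPM with TRAP-1-NegB, 41.6, 59.0 and 49.2 CPM with TRAP-1-NegP, 39.6, 36.7 and 42.6 CPM with JQ1, 22.1, 25.7 and 28.4 CPM with MS78, and 30.4, 36.2 and 34.9 CPM with DMSO at 4 h. The libraries of TRAP1, TRAP-1-NegP and JQ1 lay above those of DMSO, JQ1 narrowly, at 36.7 CPM in its lowest library. TRAP1 was called at 0.88 ± 0.12 (adjusted p = 4.38e-09) and TRAP-1-NegP at 0.56 ± 0.12 (adjusted p = 7.53e-05). JQ1 at 0.23 was not called (adjusted p = 0.101). MS78 lay below DMSO, at -0.41 ± 0.12 (adjusted p = 0.0106), a call that ended without the MS78 library numbered 1, at -0.29, or the DMSO libraries numbered 2 or 3, at -0.36 and -0.39. The MXD4 transcript NM_006454.2, of 209 codons, had 11.9 ± 1.9 TPM with TRAP1 and 6.34 ± 0.71 TPM with DMSO at 4 h. The other MXD4 transcript had 6.59 ± 1.83 and 6.40 ± 0.99 TPM. These estimates are unsteady: the share of NM_006454.2 ran between 9.77 and 80.4% of the gene over all libraries.

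MXD3, linked to S phase and low in these cells, had 7.38, 5.52 and 8.80 CPM with TRAP1, 9.90, 6.70 and 13.2 CPM with TRAP-1-NegP, 5.98, 9.04 and 9.58 CPM with JQ1, and 6.12, 4.26 and 5.32 CPM with DMSO at 4 h. It rose with TRAP-1-NegP, at 0.92 ± 0.26 (adjusted p = 0.00413), and with JQ1, at 0.65 ± 0.26 (adjusted p = 0.0376), whose libraries overlapped those of DMSO. TRAP1 at 0.46 was not called (adjusted p = 0.152). The TRAP-1-NegP call ended without its library numbered 3, at 0.66, and the JQ1 call without JQ1 numbered 2 or 3 or DMSO numbered 2 or 3, at 0.52 to 0.66. The JQ1 call also ended with no count filter, at 0.62 (adjusted p = 0.0675), and on library totals, at 0.52 (adjusted p = 0.0976).

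MNT, the widely expressed antagonist of MYC, showed the largest fold changes of the network with TRAP1 and JQ1 at 4 h. At 2 h it had 10.0, 10.3 and 7.82 CPM with TRAP1, 21.4, 21.1 and 20.8 CPM with TRAP-1-NegB, 10.7, 9.37 and 8.84 CPM with TRAP-1-NegP, 7.44, 7.19 and 6.79 CPM with JQ1, 25.6, 23.1 and 19.1 CPM with MS78, and 15.7, 16.3 and 20.5 CPM with DMSO. TRAP1, TRAP-1-NegP and JQ1 lay below DMSO at 2 h, at -0.90 ± 0.16 (adjusted p = 8.47e-06), -0.86 ± 0.16 (adjusted p = 2.11e-05) and -1.29 ± 0.16 (adjusted p = 4.36e-09). By 4 h MNT had 3.79, 3.68 and 4.74 CPM with TRAP1, 19.6, 20.0 and 17.6 CPM with TRAP-1-NegB, 8.49, 7.95 and 7.52 CPM with TRAP-1-NegP, 4.46, 5.11 and 6.04 CPM with JQ1, 15.9, 20.4 and 19.1 CPM with MS78, and 13.7, 18.1 and 15.6 CPM with DMSO. The fall was -1.96 ± 0.17 for TRAP1 (adjusted p = 2.09e-14), -0.98 ± 0.16 for TRAP-1-NegP (adjusted p = 1.64e-06) and -1.60 ± 0.17 for JQ1 (adjusted p = 7.53e-12). With TRAP-1-NegB and MS78 the values were between 0.22 and 0.37 at both times, without a call by edgeR. MS78 at 2 h was called by DESeq2 (0.38, adjusted p = 0.0462), and by edgeR without DMSO numbered 3, at 0.51, or MS78 numbered 3, at 0.48.

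MGA, a large factor that carries a T-box beside its leucine zipper and scaffolds the Polycomb complex PRC1.6, had 20.4, 17.0 and 15.1 CPM with TRAP1, 37.2, 30.2 and 31.1 CPM with TRAP-1-NegB, 15.5, 19.1 and 16.6 CPM with TRAP-1-NegP, 21.8, 22.6 and 20.0 CPM with JQ1, 26.4, 35.6 and 36.5 CPM with MS78, and 41.4, 43.4 and 41.9 CPM with DMSO at 2 h. Every compound's libraries lay below those of DMSO. The falls were -1.27 ± 0.13 for TRAP1 (adjusted p = 1.5e-11), -1.31 ± 0.13 for TRAP-1-NegP (adjusted p = 7.99e-12) and -0.97 ± 0.13 for JQ1 (adjusted p = 1.57e-08). The calls for TRAP-1-NegB, at -0.36 ± 0.13 (adjusted p = 0.0497), and MS78, at -0.37 ± 0.13 (adjusted p = 0.0367), were weaker: the TRAP-1-NegB call ended without any of its 6 libraries, at -0.27 to -0.42, and the MS78 call without its library numbered 1, at -0.23, or any DMSO library, at -0.33 to -0.37. At 4 h MGA had 9.96, 11.8 and 12.5 CPM with TRAP1, 32, 24.7 and 28.7 CPM with TRAP-1-NegB, 17.6, 17.2 and 21.2 CPM with TRAP-1-NegP, 17.4, 20.3 and 19.7 CPM with JQ1, 30.9, 36.2 and 31.9 CPM with MS78, and 32.2, 27.5 and 27.7 CPM with DMSO. TRAP1 was now lowest, at -1.36 ± 0.14 (adjusted p = 1.6e-12), against -0.65 ± 0.13 for TRAP-1-NegP (adjusted p = 5.81e-05) and -0.61 ± 0.13 for JQ1 (adjusted p = 9.28e-05). TRAP-1-NegB at -0.03 and MS78 at 0.18 were not called.

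Compounds were compared directly in 5 pairs at each time, all at 3 µM, with p-values adjusted over all genes within each pair. TRAP1 set against TRAP-1-NegB gave 6 calls among the members at 2 h, against 20.7% of all genes, and 9 at 4 h, against 46.1%. At 4 h MNT was lower with TRAP1 by a log2 fold change of -2.23, MGA by -1.32, MLX by -0.77 and MAX by -0.32, while MXD1 was higher by 1.04, MXI1 by 0.85, MXD4 by 0.72, MXD3 by 0.66 and MYCL by 1.42. MAX was lost without the TRAP1 library numbered 1, at -0.23, and MXD3 without either of the TRAP1 or TRAP-1-NegB libraries numbered 1 or 3, at 0.49 to 0.68. MYC differed at 2 h, at -0.52, and at 4 h was -0.15 without a call (adjusted p = 0.0928), though called at -0.39 on library totals. TRAP1 set against MS78 gave 6 calls at 2 h, against 22.6%, and 8 at 4 h, against 49.3%, with MNT at -2.18, MGA at -1.54, MXD4 at 1.30 and MXD1 at 1.16 at 4 h. MXI1 at 0.63 and MAX at -0.24 were also called there, but MXI1 was lost without the MS78 library numbered 3, at 0.47, and on library totals, at 0.28, and MAX without the TRAP1 library numbered 1, at -0.17. MYC was -0.61 at 2 h and -0.13 at 4 h, where it was not called (adjusted p = 0.14). It was called there on library totals, at -0.48, and without the MS78 library numbered 2, at -0.23, or the TRAP1 library numbered 3, at -0.20.

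TRAP1 and TRAP-1-NegP differed in more members at 4 h than at 2 h. At 2 h 1 member was called, against 0.801% of all genes: MYC, lower with TRAP1 at -0.32 ± 0.08 (adjusted p = 0.0199), a call that ended without TRAP1 or TRAP-1-NegP numbered 1 or 3, at -0.28 to -0.34. The 95% interval of the difference ran between -0.37 and 0.29 for MNT and between -0.23 and 0.31 for MGA. At 4 h 5 members were called, against 15.3%. MNT was lower with TRAP1 at -0.98 ± 0.18 (adjusted p = 3.52e-05), MGA at -0.71 ± 0.14 (adjusted p = 0.000121) and MLX at -0.28 ± 0.10 (adjusted p = 0.0354). MXI1 was higher at 1.34 ± 0.20 (adjusted p = 1.54e-06) and MXD4 at 0.32 ± 0.11 (adjusted p = 0.0456). The MLX call ended without TRAP1 numbered 1 or TRAP-1-NegP numbered 1 or 3, at -0.22 to -0.26, and the MXD4 call without any library but TRAP-1-NegP numbered 2, at 0.20 to 0.33. MXD4 also lost its call on length-scaled counts (adjusted p = 0.0564) and on library totals, at 0.22 (adjusted p = 0.163), and MLX with no count filter (adjusted p = 0.0789) or with only the groups compared (adjusted p = 0.153). For MYC the difference was 0.13, with an interval between -0.02 and 0.29, and for MYCL 0.17, between -0.32 and 0.65.

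TRAP1 and JQ1 gave no call among the members at 2 h by edgeR or DESeq2, against 1.99% of all genes, and 3 members had an unadjusted edgeR p under 0.05. The interval for MYC ran between -0.01 and 0.30. At 4 h 4 members were called, against 27.4%. MGA was lower with TRAP1 at -0.75 ± 0.14 (adjusted p = 2.3e-05), and MXI1 was higher at 1.00 ± 0.20 (adjusted p = 9.64e-05), MXD4 at 0.65 ± 0.11 (adjusted p = 1.15e-05) and MYC at 0.21 ± 0.08 (adjusted p = 0.0307). The MYC call ended without JQ1 numbered 1 or 3 or TRAP1 numbered 3, at 0.19 to 0.21, and on library totals, at 0.07. MLX differed by 0.02, with an interval between -0.17 and 0.21, and MNT by -0.36 without a call (adjusted p = 0.135), but with a call at -0.50 on library totals. JQ1 set against TRAP-1-NegP gave 1 call at 2 h, against 12.9%, which was MYC at -0.47 ± 0.08 (adjusted p = 2.8e-05). At 4 h it gave 4, against 25.7%: MNT at -0.62, MLX at -0.30, MXD1 at 0.38 and MXD4 at -0.33. MLX ended without JQ1 numbered 1 or 3, at -0.28, and MXD4 without JQ1 numbered 1 or 2 or TRAP-1-NegP numbered 2, at -0.19 to -0.33.

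**Figure D4:**
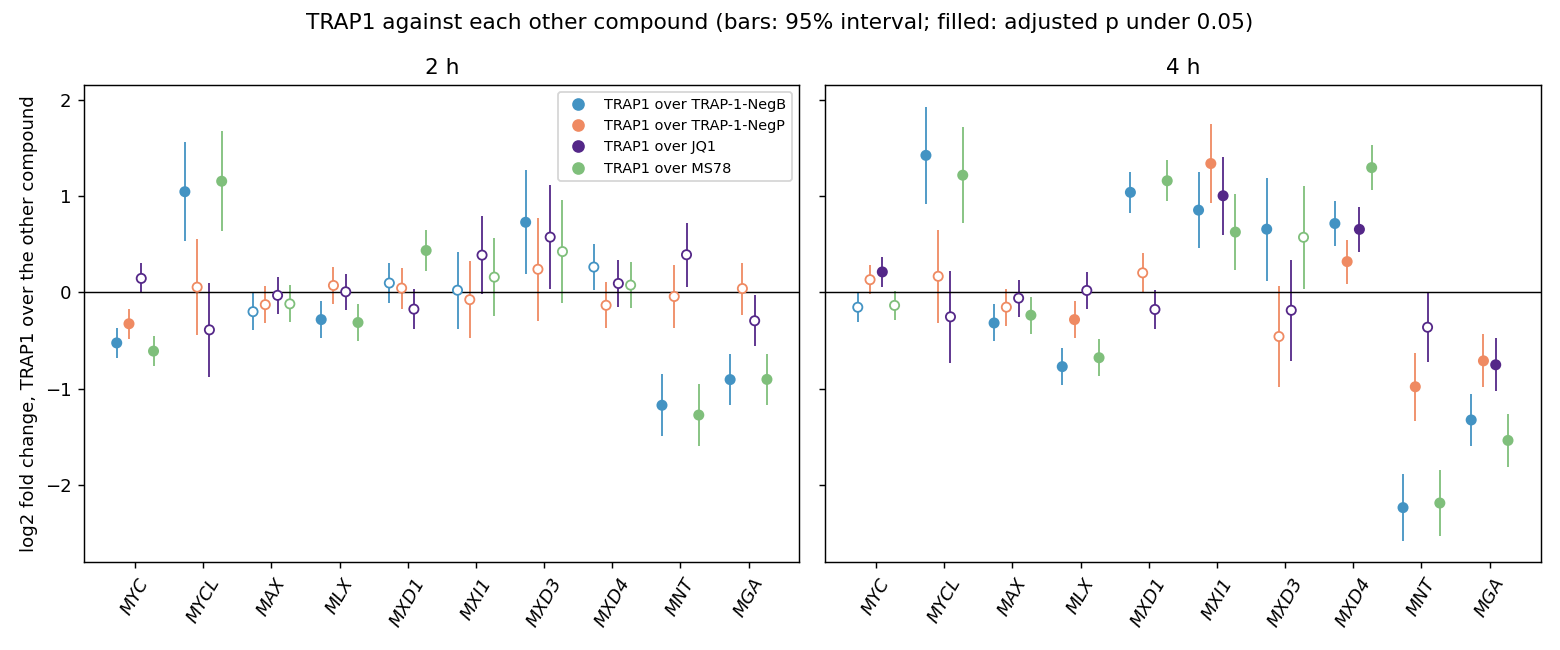
Log2 fold change of TRAP1 over each other compound for the 10 members at 2 and 4 h, with 95% intervals from edgeR; filled points passed an adjusted p under 0.05. At 4 h MGA was lower with TRAP1 than with each of the 4 other compounds, between -0.71 and -1.54, and MXI1 higher, between 0.63 and 1.34, where the lowest value, over MS78, lost its call on library totals at 0.28.

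The solvent controls moved between the times. With DMSO 4 members were called at 4 h against 2 h, where 20.8% of all genes were: MYC at 0.27 (adjusted p = 0.00585) and MXD4 at 0.40 (adjusted p = 0.00943) were higher at 4 h, and MXD1 at -0.51 (adjusted p = 0.000271) and MGA at -0.53 (adjusted p = 0.00136) lower. MYC ended without the DMSO library numbered 3 at 2 h, at 0.21, and MXD4 without DMSO numbered 1 at 2 h or 2 at 4 h, at 0.32 and 0.35. The change of a compound's effect between 2 and 4 h was called for 4 members with TRAP1, against 22% of all genes, for 3 with TRAP-1-NegP, against 23.2%, for 2 with JQ1, against 26%, and for 2 with MS78, against 15.2%. For TRAP-1-NegB 0 were called by edgeR and by DESeq2, against 2.48%, with 1 at an unadjusted p under 0.05. MXD1 gained 1.18 with TRAP1, 1.03 with TRAP-1-NegP and 1.19 with JQ1, each contrast holding the fall of MXD1 in DMSO. MNT with TRAP1 fell further, with a change in effect of -1.06 (adjusted p = 0.000507).

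The balance of MYC and its antagonists was summarised as MYC TPM divided by the summed TPM of MXD1, MXI1, MXD3, MXD4 and MNT. At 2 h it was 1.13 ± 0.037 with TRAP1, 1.70 ± 0.12 with TRAP-1-NegB, 1.40 ± 0.059 with TRAP-1-NegP, 1.09 ± 0.063 with JQ1, 1.84 ± 0.16 with MS78 and 1.70 ± 0.26 with DMSO (SD, n = 3). At 4 h it was 0.912 ± 0.036 with TRAP1, 1.6 ± 0.13 with TRAP-1-NegB, 0.958 ± 0.097 with TRAP-1-NegP, 0.924 ± 0.061 with JQ1, 1.78 ± 0.17 with MS78 and 2.05 ± 0.18 with DMSO. At 4 h every compound's libraries lay below those of DMSO, of which the lowest was at 1.903. The highest library was at 1.740 with TRAP-1-NegB and at 1.897 with MS78. With TRAP1, TRAP-1-NegP and JQ1 MYC mRNA was at about the level of the summed antagonists at 4 h. At 2 h the libraries of TRAP-1-NegP, at 1.34 to 1.46, overlapped the lowest DMSO library, at 1.39. The antagonists summed to 44.0 ± 1.6 TPM with TRAP1, 42.3 ± 2.4 TPM with TRAP-1-NegP, 45.7 ± 1.0 TPM with JQ1 and 33.3 ± 1.1 TPM with DMSO at 4 h. These are mRNA levels, no protein was measured, and the ratio got no test.

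**Figure D5:**
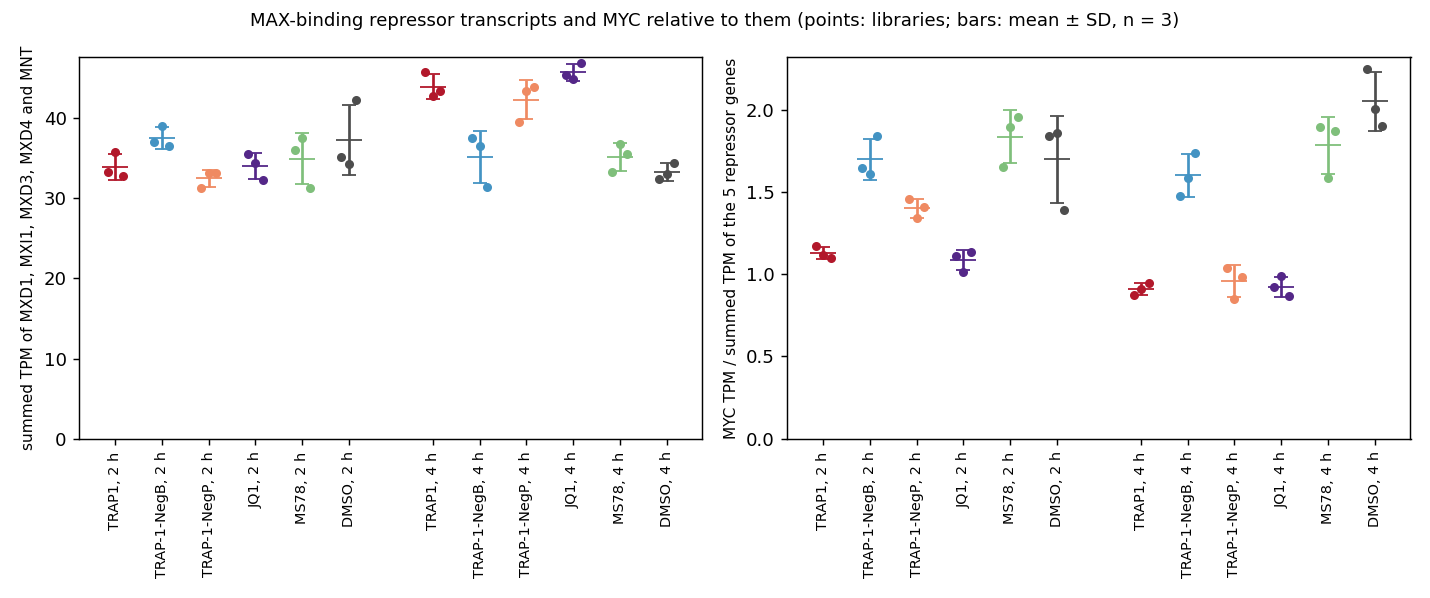
Left, summed TPM of MXD1, MXI1, MXD3, MXD4 and MNT; right, MYC TPM divided by that sum; points are libraries and bars the mean ± SD of 3 libraries, with DMSO last at each time. At 4 h the ratio was 0.912 with TRAP1 and 2.05 with DMSO.

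Other genes of the pathway were read from lists of known function, in counts called against DMSO. These lists too were chosen with earlier results of these data known. With TRAP1 at 4 h 46.7% of all genes tested were called, 22.2% upward and 24.5% downward. With TRAP-1-NegP 18.6% were called upward and 18.9% downward at 4 h, and with JQ1 24.3% and 24.6%. The counts of the lists stand against these shares of the same compound. Of 13 MYC cofactors, 2 rose and 9 fell with TRAP1 at 4 h, with a median of -0.67, against -0.02 over all genes; 0 rose and 7 fell with TRAP-1-NegP and 0 rose and 9 fell with JQ1. HCFC1, a MYC-binding host cell factor, fell to 60.4 CPM with TRAP1, against 148 CPM with DMSO, at -1.30 ± 0.08 (adjusted p = 1.4e-19). The acetyltransferases KAT5 and CREBBP fell by 1.93 and 1.09 on the log2 scale, and RUVBL1 and ACTL6A, which sit in chromatin remodelling complexes, rose by 0.21 and 0.27.

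Among 10 tested subunits of the MGA complex PRC1.6, 1 rose and 4 fell with TRAP1 at 4 h, MGA itself left out of the list. These 5 calls among 10 genes are near the 46.7% of all genes. L3MBTL2, a reader of the complex, fell to 11.4 CPM with TRAP1, against 36.7 CPM with DMSO, at -1.69 ± 0.14 (adjusted p = 2.99e-15), and was at -1.0 with TRAP-1-NegP and -1.99 with JQ1. RING1, a ubiquitin ligase, fell by 1.20, and RYBP rose by 1.02 on the log2 scale. Of 18 SIN3 corepressor subunits, which the MXD proteins recruit, 5 rose and 5 fell with TRAP1 at 4 h, with a median of 0.04, a count near the share of all genes called. ING1 rose to 48.2 CPM with TRAP1, against 18.1 CPM with DMSO, at 1.41 ± 0.12 (adjusted p = 2.16e-15), HDAC1 by 0.34 and SAP18 by 0.38, while SUDS3 was at -0.61 and SIN3B at -0.51.

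Of 23 genes that control MYC protein turnover, 5 rose and 8 fell with TRAP1 at 4 h, of which the upward count is near the 22.2% of all genes and the downward one somewhat above the 24.5%. FBXW7, the ubiquitin ligase subunit that marks MYC for degradation, rose to 27.4 CPM with TRAP1, against 8.93 CPM with DMSO, at 1.61 ± 0.15 (adjusted p = 4.15e-13). At 4 h it also passed the test with TRAP-1-NegB, at 0.82, TRAP-1-NegP, at 0.67, JQ1, at 0.90, and MS78, at 0.69. GSK3B, whose phosphorylation of MYC precedes that step, rose by 0.47 and FBXO32 by 0.94, and TRIM32 at -1.73, USP13 at -1.21 and SENP1 at -1.11 fell.

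Targets of MYC were read as repressed and activated lists. Of all genes at 4 h 22.2% rose and 24.5% fell with TRAP1. The shares were 18.6% and 18.9% with TRAP-1-NegP, and 24.3% and 24.6% with JQ1. Of 13 tested genes known to be repressed by MYC, 9 rose and 1 fell with TRAP1 at 4 h, with a median of 1.04, 10 rose and 0 fell with TRAP-1-NegP, and 11 rose and 0 fell with JQ1. CDKN1A, the cell-cycle inhibitor p21, rose by 5.59 with TRAP1, 2.08 with TRAP-1-NegP and 2.13 with JQ1. GADD45B, a stress-response gene, rose by 2.07 with TRAP1, and KLF6 fell, at -0.72. Of 47 genes known to be activated by MYC, 24 rose and 10 fell with TRAP1 at 4 h, 18 rose and 7 fell with TRAP-1-NegP, and 22 rose and 12 fell with JQ1. That split turned with the scaling: on library totals 14 rose and 19 fell with TRAP1, 13 rose and 14 fell with TRAP-1-NegP, and 20 rose and 20 fell with JQ1. ODC1, the rate-limiting enzyme of polyamine synthesis and an E-box target, rose by 0.91 with TRAP1, and IMPDH2 by 0.84 and EIF4A1 by 0.63, while the ribosome assembly factor RRS1 at -1.31, the polymerase I subunit POLR1B at -0.84 and the pyrimidine enzyme CAD at -0.77 fell.

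Of 5 targets of the MondoA and MLX dimer, 4 rose and 1 fell with TRAP1 at 4 h. With TRAP-1-NegP 4 rose and 0 fell, and with JQ1 5 rose and 0 fell, in the same libraries in which MLX fell. Of all genes 22.2% rose with TRAP1, 18.6% with TRAP-1-NegP and 24.3% with JQ1. TXNIP, an inhibitor of glucose uptake, rose to 351 CPM with TRAP1, against 106 CPM with DMSO, at 1.73 ± 0.06 (adjusted p = 2.53e-31), and was at 1.57 with TRAP-1-NegP and 1.64 with JQ1. TXNIP is also in the list of genes repressed by MYC, so it counts in both lists. IRS2 rose by 1.84 and PFKFB3 by 1.22 with TRAP1, and hexokinase HK2 was at -0.28 with TRAP1 and 0.33 with JQ1. MLXIP, which encodes MondoA, rose by 0.59 with TRAP1, 0.70 with TRAP-1-NegP and 0.90 with JQ1 at 4 h. Its relative MLXIPL had 0 counts with DMSO at 4 h. Its means of 0.312 CPM with TRAP1, 0.391 CPM with TRAP-1-NegP and 0.808 CPM with JQ1 were too low for a fold change. MLXIPL could pass the count filter only through groups in which it was present, so its calls in these groups are not read as a result. Of 3 tested noncoding RNAs near MYC, CCAT1 was called, at -1.66 with TRAP1, -1.60 with TRAP-1-NegP and -1.22 with JQ1.

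Genes most like each member were those with the highest Pearson correlation of mean log2 CPM over the 12 groups, searched among 10316 genes of at least 5 CPM. The groups share DMSO, times and scaling, so these values describe the groups and got no test. Most like MYC were BYSL, a ribosome assembly factor, at 0.972, GPATCH3 at 0.962, OXSM at 0.959, JAGN1 at 0.955 and ZNF500 at 0.944. MNT was closest to C16orf54 at 0.987 and GMEB1 at 0.980, MGA to BCL9 at 0.986 and TIRAP at 0.983, and MLX to TRIM16 at 0.978 and MAP2K7 at 0.977. MXD1 was closest to UBASH3B at 0.975 and MTHFD2 at 0.974, MXD4 to TPI1 at 0.973 and RPSAP58 at 0.970, a pseudogene whose reads can be shared with its parent gene, and MYCL to CEBPA at 0.973 and GINS4 at 0.971. The remaining members had TOR4A at 0.962 and DOLPP1 at 0.960 for MAX, MED19 at 0.950 and MAP3K3 at 0.938 for MXD3, and AKR1B10 at 0.902 and TXNDC11 at 0.901 for MXI1. Among the members themselves MNT ran opposite to MYCL, at -0.969 over the 12 groups, and along with MLX, at 0.900.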

How the data were processed

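Polyadenylated RNA of BxPC-3 cells was sequenced as paired reads of 150 bases, per the labels' protocols. The authors deposited expected counts per gene, made with Salmon 1.10.3 through nf-core/rnaseq 3.18.0 on hg38, per the submitters' processing notes; no source used here names the annotation release. They also deposited length-scaled counts and TPM values per gene and per transcript. Estimated counts were rounded and genes were filtered with edgeR's filterByExpr at a minimum count of 10, leaving 14988 genes. All 12 groups were fitted together (edgeR 4.0.16, TMM, robust quasi-likelihood, common biological coefficient of variation 0.135), with Benjamini-Hochberg adjustment within each comparison; fold changes are log2. The fit was tested on simulated data. DESeq2 1.42.0, other scalings and filters, length-scaled counts, a replicate block and left-out libraries were alternatives. TPM values were described without a test. Library totals fix the precision of low genes, such as MYCL, MXI1 and MXD3.

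The members and lists were chosen with earlier results of these data known. All 10 members are named; from each list, up to 3 genes per direction by adjusted p with TRAP1 at 4 h; and the 5 genes most like MYC and the 2 most like each other member. A gene that this rule names is not reported here. GENCODE v29 and RefSeq GRCh38.p14 gave gene positions and promoters. No source used here states whether counting used strand, so reads of overlapping genes on opposite strands cannot be told apart.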

Additional observations from a re-analysis of the deposited data

Results flagged for a closer look

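The effect of a compound over DMSO differed between 4 h and 2 h for 11 pairs of member and compound, by the interaction term of the edgeR fit, given as the log2 effect at 4 h minus that at 2 h. With TRAP1 these were MXD1 at 1.18 (adjusted p = 1.77e-08), MXD4 at 0.92 (adjusted p = 2.45e-05), MNT at -1.06 (adjusted p = 0.000507) and MLX at -0.39 (adjusted p = 0.0249). With TRAP-1-NegP they were MXD1 at 1.03 (adjusted p = 6.1e-07), MXD4 at 0.47 (adjusted p = 0.0316) and MGA at 0.66 (adjusted p = 0.00587). With JQ1 they were MXD1 at 1.19 (adjusted p = 1.2e-08) and MLX at -0.41 (adjusted p = 0.0165), and with MS78 MXD1 at 0.46 (adjusted p = 0.0295) and MGA at 0.54 (adjusted p = 0.0299).

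In DMSO between 2 and 4 h MXD1 moved by -0.51, MGA by -0.53 and MXD4 by 0.40, and each of these contrasts holds that movement. Some calls ended without a single library. MXD1 with MS78 did so without MS78 numbered 1 at 2 h or 2 or 3 at 4 h, or DMSO numbered 1 or 3 at 2 h or 1 or 2 at 4 h, at 0.38 to 0.47. MGA with MS78 did so without MS78 numbered 1 at 2 h or 2 at 4 h, or DMSO numbered 2 at 2 h or 2 or 3 at 4 h, at 0.41 to 0.54. MLX with TRAP1 did so without TRAP1 numbered 2 at 2 h or 1 at 4 h, or DMSO numbered 3 at 4 h, at -0.32 to -0.37, and MLX with JQ1 without JQ1 numbered 1 at 2 h, at -0.35. MXD4 with TRAP-1-NegP did so without TRAP-1-NegP numbered 1 or 2 at 2 h or 2 at 4 h, or DMSO numbered 3 at 2 h or 1 at 4 h, at 0.33 to 0.47. MGA with TRAP-1-NegP was at 0.41 without a call on length-scaled counts.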

How the results depend on the processing

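No called fold change of a member turned its direction under any alternative tried. For TRAP-1-NegB at 2 h the 1 member called became 0 with DESeq2 size factors, no count filter, length-scaled counts, the replicate block or library totals without TMM, and 2 with the DESeq2 test or with only the groups compared. For TRAP-1-NegB at 4 h the 0 called became 1 with the DESeq2 test, only the groups compared or library totals. JQ1 against TRAP-1-NegP at 2 h gave 2 with the DESeq2 test or library totals and 3 with only the groups compared, in place of 1. The 2 calls of MS78 at 2 h became 1 with length-scaled counts or without the 2 libraries that stand apart and 0 with only the groups compared; the 2 of its change between times became 1, 0 and 0 under the same settings in that order: length-scaled counts, the 2 libraries left out, only the groups compared. DESeq2 raised both MS78 counts to 3, adding MNT at 2 h (adjusted p = 0.0462) and MYC for the change between times (adjusted p = 0.0293), and the stricter filter also added that MYC call (adjusted p = 0.0499). The cause of these moves was not tested. Library totals were chosen as an alternative after seeing the data.

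With each library left out in turn, TRAP1 gave 4 to 6 calls at 2 h and 9 to 9 at 4 h, TRAP-1-NegP 4 to 5 and 7 to 9, JQ1 5 to 5 and 7 to 7, MS78 1 to 3 and 1 to 2, and TRAP-1-NegB 0 to 0 at 2 h. TRAP1 against TRAP-1-NegP gave 0 to 1 and 3 to 5, and JQ1 against TRAP-1-NegP 2 to 4 at 4 h. Change between times gave 3 to 5 for TRAP1, 2 to 4 for TRAP-1-NegP, 1 to 3 for JQ1 and 0 to 3 for MS78.

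Replicate numbers did not pair the libraries: libraries of the same number correlated at -0.081 to 0.070 in their deviations. With the number as a block, MGA with TRAP-1-NegB at 2 h (-0.36, adjusted p = 0.0596) and MXD3 in TRAP1 against TRAP-1-NegB at 2 h (0.73, adjusted p = 0.0512) lost their calls. The ratio of MYC to its antagonists at 4 h was 0.500 with TRAP1 and 1.14 with DMSO when computed on CPM. Genes under 10 CPM are limited by depth.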
